A study of Homo sapiens with 9 samples.

Results

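The kinesin motor family was followed through 24 h of BET bromodomain inhibition in MDA-MB-231 cells. Its members were taken as every gene whose symbol in the platform's gene table is KIF with a number and an optional letter from A to C, or KIFC with a number, which gave 42 kinesins among 14884 named genes. They were divided by known role into 9 mitotic kinesins, 15 transport kinesins, 7 other spindle kinesins and 11 kinesins of cilia and signalling. MDA-MB-231 is a triple-negative breast cancer cell line, and JQ1 is an inhibitor that fills the bromodomains of BET proteins and so releases these proteins from acetylated chromatin. Total RNA was hybridised to Affymetrix Human Gene 2.0 ST arrays, 1 sample per array. The 3 control arrays carried RNA of cells with no agent at time 0, 3 arrays carried RNA of cells kept in 500 nM JQ1 for 12 h, and 3 arrays RNA of cells kept in 500 nM JQ1 for 24 h. The labels name no vehicle and no untreated cells at 12 h or 24 h, so an effect of JQ1 cannot be told apart from one of solvent or of time in culture. All samples come from 1 cell line, and the labels do not say whether replicates were separate cultures. P-values therefore set differences between groups against the spread among these samples only, and that spread may be technical.

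Kinesins are motor proteins that burn ATP to step along microtubules or to take them apart. Mitotic kinesins build the bipolar spindle, move and align chromosomes, shorten microtubule ends and hold the midzone together until the cell divides, and the messages of many of them build up in G2 and M phase and are low in resting cells. Transport kinesins carry vesicles, mitochondria and protein complexes through the cytoplasm in cycling and resting cells alike. Genes of the late cell cycle often carry, close to their start, a CHR element (cell cycle genes homology region) and CCAAT boxes. The CHR is read by the DREAM and B-MYB complexes and the CCAAT box by the factor NF-Y.

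Promoter stretches of the mitotic kinesins are shown because these 9 genes were high or low in the same arrays, and those of 2 transport kinesins that rose, KIF1B and KIF3A, are shown beside them. Sequences are from RefSeq, assembly GRCh38.p14, and run from 100 bases before to 30 bases after the annotated gene start, 5′ to 3′ on the gene's own strand. Capitals mark CHR matches (TTTGAA or TTCGAA, or their reverse complements) and CCAAT boxes (CCAAT, or ATTGG where the box lies on the other strand). KIF1B also has CCAAT boxes at −157 to −153 and at −126 to −122, upstream of the stretch printed.
KIF11: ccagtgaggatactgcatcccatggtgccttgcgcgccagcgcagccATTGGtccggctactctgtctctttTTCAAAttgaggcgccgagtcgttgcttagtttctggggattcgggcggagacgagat
KIF20A: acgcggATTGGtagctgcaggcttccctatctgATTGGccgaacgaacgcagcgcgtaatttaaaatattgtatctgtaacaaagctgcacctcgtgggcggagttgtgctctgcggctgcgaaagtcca
KIF23: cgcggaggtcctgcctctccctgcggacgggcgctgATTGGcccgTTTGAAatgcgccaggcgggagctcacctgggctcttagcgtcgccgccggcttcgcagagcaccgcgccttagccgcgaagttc
KIF2C: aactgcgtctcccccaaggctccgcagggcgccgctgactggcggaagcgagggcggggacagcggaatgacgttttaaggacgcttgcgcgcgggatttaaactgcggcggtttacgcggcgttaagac
KIF4A: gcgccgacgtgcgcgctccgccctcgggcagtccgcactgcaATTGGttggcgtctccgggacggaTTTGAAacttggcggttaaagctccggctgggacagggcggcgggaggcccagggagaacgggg
KIFC1: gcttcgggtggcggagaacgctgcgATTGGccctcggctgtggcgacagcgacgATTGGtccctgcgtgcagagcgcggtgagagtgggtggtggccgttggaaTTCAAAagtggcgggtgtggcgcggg
KIF14: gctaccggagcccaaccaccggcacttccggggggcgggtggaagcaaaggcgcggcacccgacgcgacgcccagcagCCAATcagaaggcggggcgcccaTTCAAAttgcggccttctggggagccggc
KIF15: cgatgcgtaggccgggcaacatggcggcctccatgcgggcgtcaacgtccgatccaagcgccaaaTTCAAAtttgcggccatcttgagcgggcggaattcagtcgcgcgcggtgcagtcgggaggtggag
KIF18A: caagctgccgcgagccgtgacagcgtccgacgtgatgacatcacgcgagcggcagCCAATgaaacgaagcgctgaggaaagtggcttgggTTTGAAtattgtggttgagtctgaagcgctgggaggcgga
KIF1B: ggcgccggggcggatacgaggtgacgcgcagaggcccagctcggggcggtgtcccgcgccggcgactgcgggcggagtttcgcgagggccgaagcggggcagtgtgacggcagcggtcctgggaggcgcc
KIF3A: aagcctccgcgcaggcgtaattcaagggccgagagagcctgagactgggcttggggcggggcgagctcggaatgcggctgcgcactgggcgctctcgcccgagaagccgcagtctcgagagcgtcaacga
The stretches lie for KIF11 at chr10:92593030-92593159 (plus strand), KIF20A at chr5:138179012-138179141 (plus strand), KIF23 at chr15:69414249-69414378 (plus strand), KIF2C at chr1:44739737-44739866 (plus strand), and KIF4A at chrX:70290004-70290133 (plus strand). The others lie for KIFC1 at chr6:33391723-33391852 (plus strand), KIF14 at chr1:200620722-200620851 (minus strand), KIF15 at chr3:44761694-44761823 (plus strand), KIF18A at chr11:28108127-28108256 (minus strand), KIF1B at chr1:10210470-10210599 (plus strand) and KIF3A at chr5:132737517-132737646 (minus strand).

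Motifs were counted on both strands of the whole RefSeq window of 300 bases, 250 before and 50 after the start, which the table held for 34 of the 42 kinesins and for 10749 of the 14884 named genes. A CHR match was found in 7 of 9 mitotic windows (77.8%), 4 of 7 windows of other spindle kinesins (57.1%), 1 of 7 windows of cilium and signalling kinesins (14.3%) and 1 of 11 transport windows (9.09%), against 13.2% of all named genes. All 7 mitotic matches were TTTGAA on one strand or the other and lay between 55 bases before the start (KIF23, first base at −55) and 10 bases after it (KIFC1, last base at 10). The only transport match, in KIF5B, began at −140. CCAAT boxes stood in 7 of 9 mitotic windows (77.8%) and 3 of 11 transport windows (27.3%), against 36.0% of all named genes. KIF20A had CCAAT boxes without a CHR match, KIF15 a CHR match without a CCAAT box, and KIF2C neither. The E-box CACGTG was in 0 of 34 kinesin windows and in 9.02% of all named genes. A match is a run of letters and says nothing of whether a factor bound there.

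**Figure D1:**
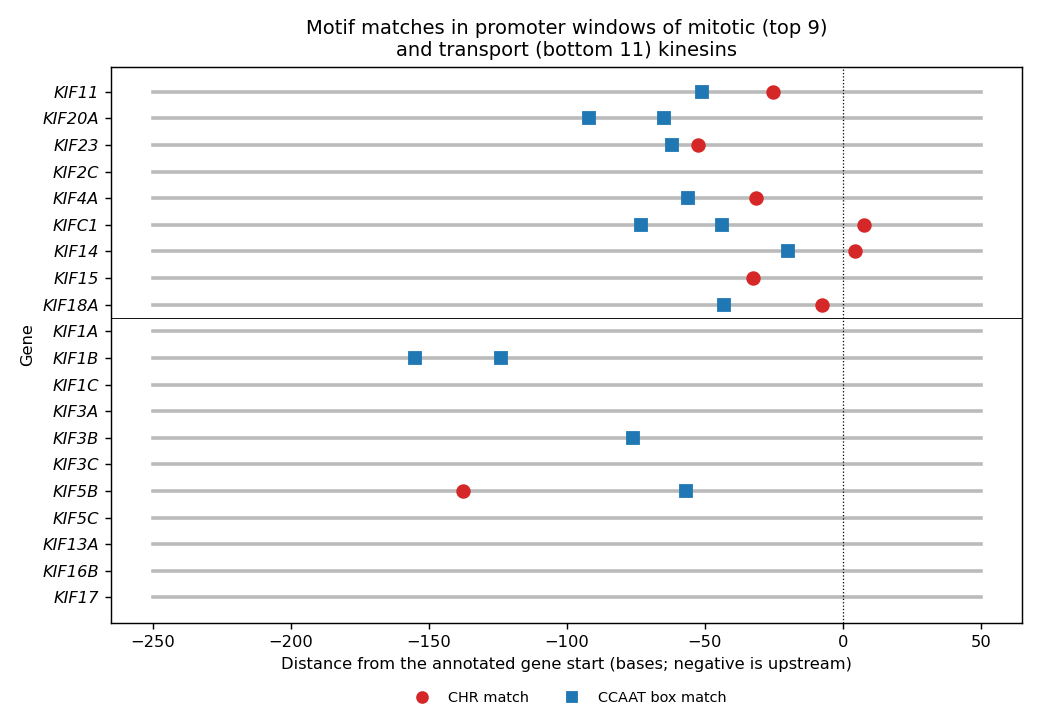
Positions of CHR matches (red circles) and CCAAT boxes (blue squares) in the promoter windows of 9 mitotic and 11 transport kinesins; the x axis is the distance in bases from the annotated gene start, negative upstream. The 7 mitotic CHR matches lie close to the start, while 1 of 11 transport windows holds a match, far upstream.

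Deposited log2 values are given throughout, differences are on the log2 scale, and all 42 kinesins were tested, since no filter on dim genes was applied. Of all rows 44.7%, and 14 of the 42 kinesin rows (33.3%), hold an exactly repeated value in at least 2 arrays, so that their spread may be understated. Array medians lay between 4.92 and 4.96. Control replicate 3 stood apart from the other controls: it correlated at r = 0.983 with control replicate 1 over all rows, against 0.995 between control replicates 1 and 2. The JQ1 arrays correlated with control replicate 1 at 0.980 to 0.983, so control replicate 3 was about as far from it as they were. Fits without control replicate 3 therefore take their controls from the closely alike pair of control replicates 1 and 2. Of the markers of this line, MSN (12.11 to 12.36), AXL (11.50 to 12.02) and VIM (10.23 to 10.69) were high here. CD44, also a marker of this line, was lower, at 7.15 to 8.11, no higher than some luminal markers. Of the luminal markers, ESR1 (4.81 to 5.17) and PGR (3.93 to 4.32) were dim, GATA3, EPCAM and KRT19 were between 6.07 and 8.62. Of the leukocyte markers CD14 was dim (4.11 to 4.57) and CD68, also expressed by many tumour lines, was at 11.42 to 11.88. The neural markers MAP2, SYP and GFAP were between 4.77 and 6.71.

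Each of the 9 mitotic kinesins was lower after 24 h than after 12 h of JQ1, although none passed the test of that difference. The median mitotic kinesin differed from control by 0.07 at 12 h and by −0.68 at 24 h. The 12 h median had no stable sign, at −0.02 without control replicate 1, −0.05 without control replicate 2 and 0.22 without control replicate 3. The median transport kinesin differed by 0.09 and by −0.005, and the median of all named genes by 0.01 at both times. At 24 h KIF2C, KIF14 and KIF18A were called lower, against 6.34% of all named genes. Called higher were 5 transport kinesins, KIF1B, KIF3A, KIF3C, KIF13A and KIFC2, against 5.17% of all named genes. In this mixture of cells, fewer cells in mitosis and less RNA per mitotic cell cannot be told apart.

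At 12 h no mitotic kinesin was called. Of the 42 kinesins 2 were called at an adjusted p under 0.05 (limma, Benjamini-Hochberg over all named genes), 1 higher and 1 lower, against 7.93% of all named genes, 3.54% higher and 4.39% lower. Both were transport kinesins, described below with their class. Among the mitotic kinesins 6 of 9 differences were above 0 and 3 below, from −0.16 for KIF18A to 0.95 for KIF20A, and in none of the 9 did the 12 h arrays lie wholly above or below the controls, where 10.9% of named genes lay wholly lower and 11.3% wholly higher. Leaving out control replicate 3 moved the count of called kinesins from 2 to 8 of 42 (5 higher, 3 lower), against 20.1% of named genes, 9.57% higher and 10.5% lower, and KIF20A and KIF15 were then called higher.

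KIF20A, also called MKLP2, carries the chromosomal passenger complex to the spindle midzone. It was at 7.78, 7.78 and 9.61 in control replicates 1 to 3, at 9.33, 9.42 and 9.27 in the 12 h arrays, and at 8.33, 8.83 and 8.32 in the 24 h arrays. Control replicate 3 was the highest of all 9 arrays, the other 2 controls were the lowest, and the 3 arrays of 12 h lay together between them. The difference at 12 h was 0.95 (SE 0.42, adjusted p = 0.24) with all controls and 1.56 (adjusted p = 1.0e-04, limma) without control replicate 3. At 24 h it was 0.10 (adjusted p = 0.93) and, without that control, 0.72 (adjusted p = 0.0070). Since control replicate 3 was the highest array for KIF20A, leaving it out raises both differences by construction. The 2 controls that remain both read 7.78, so the spread may be understated in these fits.

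KIF15, a kinesin that can hold the spindle bipolar when KIF11 is blocked, was also highest in control replicate 3. Its values were 7.66, 7.42 and 8.70 in the controls, 8.31, 8.35 and 8.56 at 12 h and 7.77, 8.05 and 7.35 at 24 h. The 12 h arrays overlapped the controls through control replicate 3 alone. The difference at 12 h was 0.48 (SE 0.30, adjusted p = 0.44), and 0.87 (adjusted p = 0.0083, limma) without control replicate 3. At 24 h it was −0.20 (adjusted p = 0.77), and 0.18 without control replicate 3, so that even its sign rested on that array.

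At 24 h 10 of the 42 kinesins were called, 5 higher and 5 lower, against 11.5% of all named genes, 5.17% higher and 6.34% lower. All 5 that rose were transport kinesins. The 5 that fell were 3 mitotic kinesins, the spindle kinesin KIF2A and the centriole kinesin KIF24. Of the 9 mitotic kinesins 8 had a difference below 0, and in 4 of them (KIF11, KIF2C, KIF14 and KIF18A) every 24 h array lay below every control, which held for 12.8% of all named genes. Without control replicate 3 the mitotic calls were 3 lower (KIF2C, KIF14 and KIF18A) and 1 higher (KIF20A), with a class median of −0.48, and 13 kinesins were called in all (7 higher, 6 lower), against 20.9% of named genes, 9.61% higher and 11.3% lower. Without 24 h replicate 2, 6 mitotic kinesins were called lower, with a class median of −0.82. In that fit 13 kinesins were called in all (3 higher, 10 lower), against 9.08% of named genes, 4.60% higher and 4.47% lower. Other single omissions lowered the mitotic calls or left them at 3. Only KIF2C was called among the mitotic kinesins without 24 h replicate 1, 24 h replicate 3 or control replicate 1. Class medians were then −0.63, −0.51 and −0.68. Kinesins called in all were 1, 2 and 4, and named genes called either way 914, 786 and 1011. Leaving out control replicate 2 or 12 h replicate 2 gave 2 mitotic calls, and 12 h replicate 1 or 3 gave 3.

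KIF2C, or MCAK, is a kinesin that does not walk but removes tubulin from microtubule ends and corrects faulty attachments at the kinetochore. It was at 9.37, 9.37 and 9.79 in the controls, at 9.55, 9.51 and 9.50 at 12 h and at 8.68, 8.99 and 8.70 at 24 h. The 12 h arrays lay among the controls and all 24 h arrays lay below both. From 9.51 ± 0.24 (SD, n = 3) in the controls it fell to 8.79 ± 0.18 at 24 h, a 1.65-fold lower value (difference −0.72, SE 0.13, adjusted p = 0.0088, limma). The call held under all 18 alternative settings tried, with adjusted p-values up to 0.045. Control replicates 1 and 2 held exactly the same value, so the spread of this gene may be understated.

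KIF14 is needed for cytokinesis, where it acts with PRC1 and citron kinase at the midbody. Values were 9.04, 9.002 and 9.44 in the controls, 8.98, 9.14 and 9.21 at 12 h and 7.98, 8.81 and 7.93 at 24 h. The 24 h arrays lay below all others, with replicate 2 nearest to them. It fell from 9.16 ± 0.25 to 8.24 ± 0.50 (SD, n = 3 each), 1.90-fold (difference −0.92, SE 0.22, adjusted p = 0.029, limma). The call was lost in 5 of 9 fits that left out 1 array (control replicates 1 and 2, 12 h replicate 2, 24 h replicates 1 and 3), with adjusted p-values of 0.053 to 0.12.

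KIF18A, which damps the oscillation of chromosomes at the metaphase plate, was the mitotic kinesin whose controls lay closest together. It read 8.79, 8.74 and 8.83 in the controls, 8.49, 8.61 and 8.76 at 12 h and 7.99, 8.45 and 7.87 at 24 h. The 24 h arrays lay below all arrays of the other groups. The fall from 8.78 ± 0.05 to 8.10 ± 0.31 (SD, n = 3 each) was 1.60-fold (difference −0.68, SE 0.14, adjusted p = 0.016, limma). Without control replicate 1, 24 h replicate 1 or 24 h replicate 3 it missed the threshold (adjusted p = 0.052 to 0.067).

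KIF11, or Eg5, slides antiparallel microtubules apart to separate the spindle poles. It was at 10.70, 10.63 and 11.13 in the controls, 10.79, 10.86 and 11.01 at 12 h and 10.05, 10.55 and 9.84 at 24 h. The 24 h arrays lay below every other array, the nearest being 24 h replicate 2. The difference of −0.68 (SE 0.19) just missed the threshold (adjusted p = 0.0503, limma) and passed it without 24 h replicate 2 (adjusted p = 0.015). It also passed with dim genes left out, with quantile normalization and with array weights, and in 5 of 18 alternatives in all.

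KIF23, or MKLP1, is the motor of the centralspindlin complex that bundles midzone microtubules. Its values were 10.05, 10.21 and 10.72 in the controls, 10.26, 10.21 and 10.50 at 12 h and 9.57, 10.06 and 9.32 at 24 h. The 24 h group overlapped the controls only through 24 h replicate 2 and control replicate 1. The difference at 24 h was −0.68 (adjusted p = 0.076), and the gene was called without 24 h replicate 2 (adjusted p = 0.031, limma).

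KIF4A is a chromokinesin that also limits midzone length with PRC1. It stood at 8.50, 8.54 and 9.03 in the controls, 8.95, 9.03 and 8.96 at 12 h and 8.09, 8.59 and 7.92 at 24 h. Only 24 h replicate 2 reached into the range of the controls. The 24 h difference of −0.49 (adjusted p = 0.14) was called only without 24 h replicate 2 (adjusted p = 0.036, limma).

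KIFC1, or HSET, is a minus-end motor that focuses spindle poles and clusters extra centrosomes. Readings were 8.49, 8.43 and 9.24 in the controls, 8.81, 8.88 and 8.74 at 12 h and 8.17, 8.54 and 7.92 at 24 h. The groups overlapped, and the difference of −0.51 at 24 h missed the threshold (adjusted p = 0.18). KIFC1 had 4 rows on the array: 2 held identical values, another differed by −0.58 at 24 h, and the last, a dim row (mean 5.78), differed by 0.28, so the rows did not all point the same way.

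**Figure D2:**
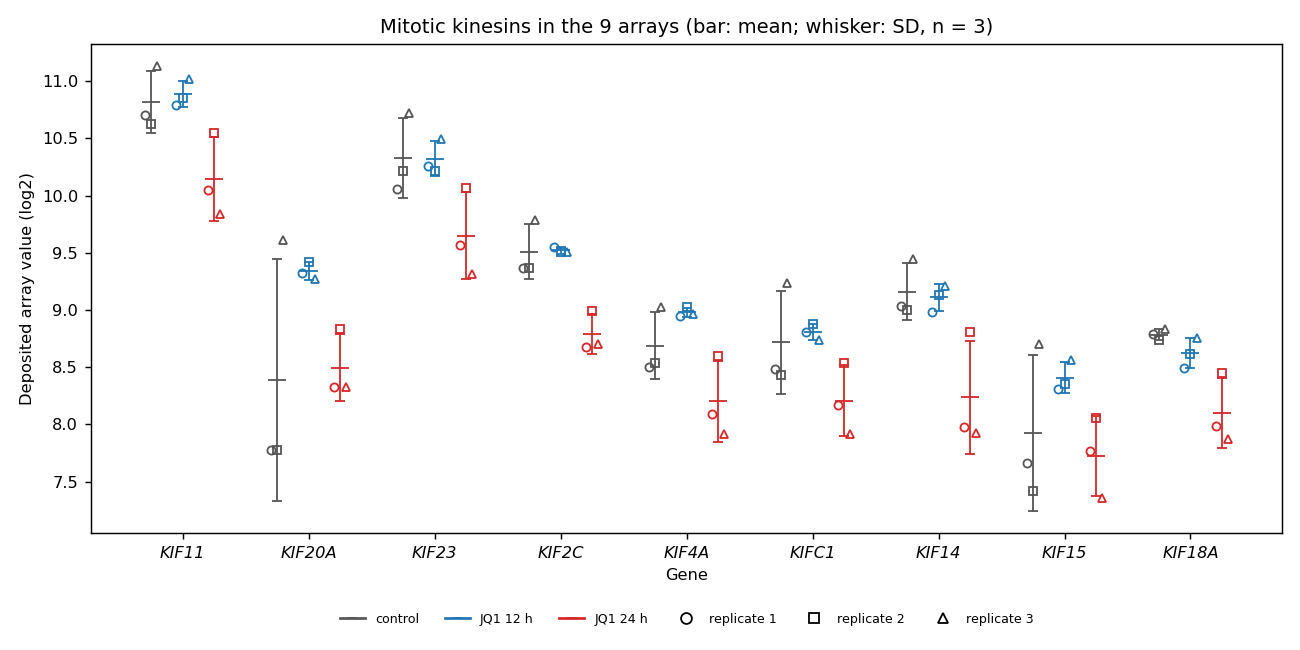
Deposited log2 values of the 9 mitotic kinesins in the 9 arrays (grey control, blue JQ1 12 h, red JQ1 24 h; circles, squares and triangles are replicates 1, 2 and 3), with bars at the mean and whiskers of 1 SD (n = 3). Control replicate 3 is the highest array for all 9 genes, and every red group lies below its blue group.

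Between 12 h and 24 h all mitotic kinesins differed in one direction. In 9 of 9 every 24 h array lay below every 12 h array, which held for 7.11% of all named genes, and 9 of 9 differences were below 0, against 49.7% of named genes. The differences ran from −0.87 for KIF14 to −0.52 for KIF18A, with a median of −0.73, or 1.66-fold. The transport kinesins had a median of 0.04 in this comparison. The other spindle kinesins had a median of −0.37, and in 3 of 7 every 24 h array lay below every 12 h array. After adjustment none of the 42 kinesins was called, and 1 of 14884 named genes was (0.00672%). The adjusted p-values of the mitotic kinesins were 0.29 to 0.78. At an unadjusted p under 0.05, 12 of 42 kinesins passed (10 of them lower), 7 of them mitotic, against 6.69% of named genes (3.41% lower). The 2 comparisons with control share the control arrays, and this one shares the treated arrays with them.

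The arrays that stood apart bore on this comparison, since all groups share 1 estimate of the spread. Without control replicate 3, KIF2C was called (difference −0.73, adjusted p = 0.031, limma) and no other kinesin, against 0.148% of named genes. The remaining controls held exactly the same KIF2C value, so its spread may be understated there. Without 24 h replicate 2, 0 kinesins and 0.0336% of named genes were called, with a mitotic median of −0.88. With both left out, a setting chosen after the data were seen, 12 kinesins were called, all lower and 9 of them mitotic, against 1.79% of named genes. The arrays left out were those that stood apart in these same mitotic kinesins, so this count cannot serve as a test of them. In the same setting 12 kinesins were called at 12 h against control (21.2% of named genes) and 20 at 24 h (20.8%).

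The 9 mitotic kinesins were also high or low together in arrays of the same group. Taking each gene's distance from its own mean over the 9 arrays, the median mitotic kinesin was at −0.05, 0.01 and 0.61 in control replicates 1 to 3. It was at 0.23, 0.30 and 0.38 in the 12 h arrays and at −0.53, −0.04 and −0.67 in the 24 h arrays. Control replicate 3 was the highest of all arrays for 9 of 9 mitotic kinesins and lay 0.51 above the mean of the other controls in the median. Within the 24 h group, replicate 2 was above both others for 9 of 9, by 0.52 in the median, and 24 h replicate 3 was the lowest of all arrays for 7 of 9. The 7 other spindle kinesins shared part of this pattern. Their median distance was 0.42 in control replicate 3, the highest array for 4 of 7. It was −0.31 in 24 h replicate 3, the lowest array for 4 of 7. For 6 of 7, 24 h replicate 2 lay above both other 24 h arrays.

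The transport kinesins did not share this pattern of arrays. Their median distance was 0.00, 0.00 and −0.10 in the controls, 0.00, −0.01 and 0.08 at 12 h, and 0.10, 0.00 and 0.01 at 24 h. Control replicate 3 was above both other controls for 4 of 15 transport kinesins and below both for 9. The median SD within the controls was 0.30 for mitotic and 0.10 for transport kinesins, and at 24 h it was 0.35 and 0.11, against 0.12 and 0.10 for all named genes. Against control replicates 1 and 2 alone, all 3 arrays of 12 h lay above both for 6 of 9 mitotic kinesins, against 21.6% of named genes, and all 3 arrays of 24 h lay below both for 4 of 9, against 22.0%. The part that the state of the individual samples has in the mitotic differences was not tested.

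**Figure D3:**
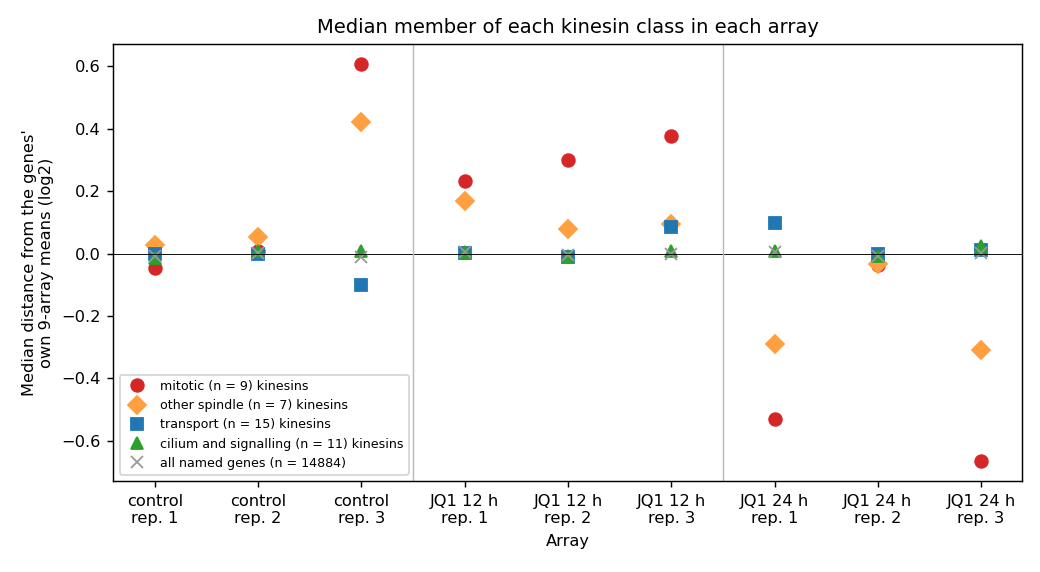
Median distance of each kinesin class from its genes' own means over the 9 arrays (log2, y axis) in each array (x axis), with all named genes as crosses. The mitotic kinesins reach 0.61 in control replicate 3 and −0.67 in 24 h replicate 3, while the transport kinesins stay between −0.10 and 0.10.

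Of the 15 transport kinesins, 1 rose and 1 fell at 12 h, against 3.54% and 4.39% of named genes, and 5 rose and 0 fell at 24 h, against 5.17% and 6.34%. At 24 h 0 kinesins were called higher with only the groups compared, without control replicate 2 or without 24 h replicate 1. Named genes called either way in these fits were 994, 1034 and 914 of 14884. With every row of the table tested, 0 kinesins were called higher as well. All 12 h arrays lay above all controls in 7 transport kinesins (KIF1B, KIF3A, KIF3B, KIF3C, KIF5B, KIF13A and KIFC2) and below them in 2 (KIF1C and KIFC3), against 11.3% and 10.9% of named genes. At 24 h this held for 6 and 1, against 13.3% and 12.8% of all named genes. The class thus held members that lay above the controls and members that lay below them.

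KIF1B carries mitochondria and synaptic vesicle precursors and was the only kinesin called at both times. It was at 8.20, 8.22 and 8.28 in the controls, at 8.59, 8.90 and 8.73 at 12 h and at 8.61, 8.88 and 8.47 at 24 h. Every treated array lay above every control, and the treated groups overlapped each other. It rose from 8.23 ± 0.04 to 8.74 ± 0.15 at 12 h (SD, n = 3 each), 1.42-fold (difference 0.51, SE 0.12, adjusted p = 0.029, limma). At 24 h the rise was 1.34-fold (0.42, SE 0.12, adjusted p = 0.046). The 12 h call was lost in 5 of 9 fits without 1 array (control replicates 1 and 2, 12 h replicates 2 and 3, 24 h replicate 1; adjusted p 0.051 to 0.11). The 24 h call was lost in 7, all but those without control replicate 3 or 24 h replicate 3 (0.051 to 0.13), and a second, dim row of the gene (mean 5.23) differed by −0.04 and 0.20.

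KIF3A and KIF3C are motor subunits of heterotrimeric and related kinesin-2, which drives intraflagellar transport and moves membrane cargo. KIF3A was at 7.99, 7.85 and 7.37 in the controls, 8.27, 8.20 and 8.59 at 12 h and 8.52, 8.21 and 8.51 at 24 h. All treated arrays lay above all controls, of which control replicate 3 was the lowest. It rose 1.59-fold at 24 h (difference 0.67, SE 0.17, adjusted p = 0.037, limma) and at 12 h differed by 0.62 (adjusted p = 0.064). Control replicate 2, 12 h replicates 1 and 2 and 24 h replicates 1 and 3 each ended the 24 h call when left out (adjusted p 0.056 to 0.13).

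KIF3C read 7.45, 7.45 and 7.30 in the controls, 7.65, 7.59 and 7.85 at 12 h and 8.04, 7.74 and 7.79 at 24 h. Again no treated array reached down to the controls. The rise at 24 h was 1.37-fold (difference 0.45, SE 0.11, adjusted p = 0.025, limma), and the 12 h difference was 0.30 (adjusted p = 0.13). The call ended without control replicate 1 or 2 or 24 h replicate 1 or 3 (adjusted p 0.059 to 0.084). KIF3B, the usual partner of KIF3A, was at 8.19, 8.36 and 8.36, then 8.48, 8.52 and 8.62, then 8.71, 8.44 and 8.58. Its groups did not overlap the controls either, with differences of 0.24 and 0.27 that missed the threshold (adjusted p = 0.16 and 0.090).

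KIF13A, which moves recycling endosomes and mannose 6-phosphate receptors, was at 7.96, 7.79 and 7.99 in the controls, 8.04, 8.17 and 8.19 at 12 h and 8.25, 8.19 and 8.22 at 24 h. All treated arrays lay above the controls by a narrow margin. It rose 1.24-fold at 24 h (difference 0.31, SE 0.08, adjusted p = 0.039, limma), a call lost in 7 of 9 fits without 1 array (all but those without control replicate 3 or 12 h replicate 1; adjusted p 0.053 to 0.13).

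KIFC2, a C-terminal motor best known from neurons, was at 6.57, 6.57 and 6.54 in the controls, 6.72, 6.59 and 6.83 at 12 h and 7.07, 6.79 and 7.06 at 24 h. The controls lay within a few hundredths of each other, below all treated arrays. It rose 1.33-fold at 24 h (difference 0.42, SE 0.10, adjusted p = 0.025, limma). Leaving out control replicate 1 or 2 or 24 h replicate 1 or 3 ended the call (adjusted p 0.072 to 0.10).

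KIFC3, a minus-end motor of epithelial junctions and the apical surface, was the only kinesin that fell at 12 h. Its values were 7.37, 7.14 and 6.94 in the controls, 6.57, 6.52 and 6.78 at 12 h and 7.06, 6.81 and 7.03 at 24 h. All 12 h arrays lay below both the controls and the 24 h arrays, and the 24 h arrays overlapped the controls. It fell 1.45-fold at 12 h (difference −0.53, SE 0.13, adjusted p = 0.034, limma), and at 24 h the difference was −0.19 (adjusted p = 0.43). From 12 h to 24 h it differed by 0.34 (adjusted p = 0.65), so the return was not called. The 12 h call was lost in 7 of 9 fits without 1 array, all but those without control replicate 3 or 24 h replicate 2 (adjusted p 0.0503 to 0.12).

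The conventional kinesin heavy chains, which haul vesicles and mitochondria, were not called in the fit of all arrays. KIF5B, the ubiquitous one, was at 11.42, 11.43 and 11.46 in the controls, 11.48, 11.58 and 11.57 at 12 h and 11.30, 11.41 and 11.28 at 24 h. The 12 h arrays lay above and the 24 h arrays below all controls, with differences of 0.10 (adjusted p = 0.48) and −0.11 (adjusted p = 0.41). The neuronal heavy chains were dim, with means of 4.67 for KIF5A and 4.34 for KIF5C. KIF5C differed by −0.19 at both times (adjusted p = 0.28 and 0.24), and by −0.28 at both without control replicate 3, when it was called (adjusted p = 0.048 and 0.045, limma). KIF1C, a carrier of integrins and of messenger RNA, differed by −0.18 and −0.15 (adjusted p = 0.34 and 0.41).

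**Figure D4:**
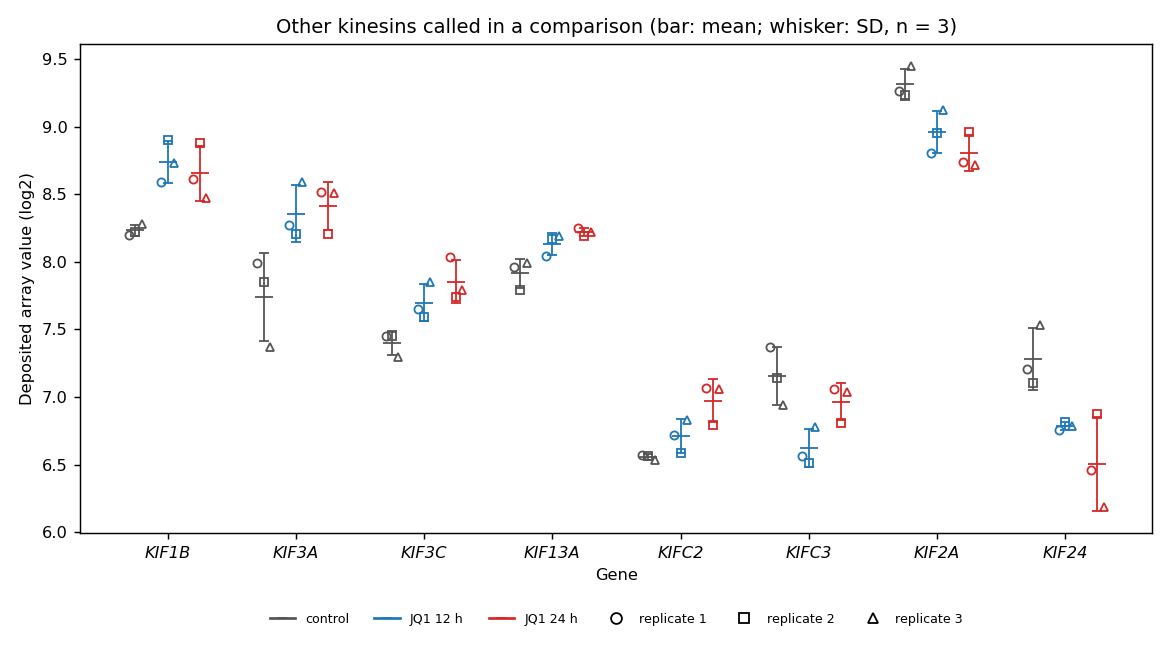
Deposited log2 values of the 8 kinesins outside the mitotic class that were called in a comparison (grey control, blue JQ1 12 h, red JQ1 24 h; marker shape gives the replicate), with bars at the mean and whiskers of 1 SD (n = 3). KIF1B, KIF3A, KIF3C, KIF13A and KIFC2 lie above their controls at both times, KIFC3 is lowest at 12 h, and KIF2A and KIF24 lie below theirs.

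Of the 7 other spindle kinesins 1 fell at 24 h and 0 rose, against 6.34% and 5.17% of named genes. In 4 of them (KIF2A, KIF4B, KIF18B and KIF20B) all 24 h arrays lay below all controls, as in 12.8% of named genes, and the class median was −0.41 at 24 h and −0.04 at 12 h. KIF2A, a microtubule depolymerase at spindle poles that also works in resting neurons, was at 9.26, 9.23 and 9.45 in the controls, 8.81, 8.95 and 9.12 at 12 h and 8.74, 8.96 and 8.72 at 24 h. All treated arrays lay below all controls. It fell 1.42-fold at 24 h (difference −0.51, SE 0.11, adjusted p = 0.017, limma) and at 12 h differed by −0.35 (adjusted p = 0.086). The call ended without 24 h replicate 1 (adjusted p = 0.069) or replicate 3 (adjusted p = 0.075).

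Other members of this class missed the threshold. KIF20B, or MPP1, a cytokinesis motor, was at 9.51, 9.31 and 9.77, then 9.05, 9.41 and 9.29, then 8.70, 9.29 and 8.38, with a 24 h difference of −0.74 (adjusted p = 0.062, and 0.012 without 24 h replicate 2, limma). KIF18B, which shortens astral microtubules with KIF2C, was at 8.48, 8.48 and 9.20, then 8.62, 8.53 and 8.52, then 8.03, 8.36 and 7.81, with −0.65 at 24 h (adjusted p = 0.074). In both genes 24 h replicate 2 lay nearest to the controls. KIF4B, a near-identical intronless copy of KIF4A whose probes may not be separable from it, was at 7.16, 7.16 and 7.24, then 7.26, 7.32 and 7.39, then 6.70, 7.06 and 6.57. Its 24 h difference was −0.41 (adjusted p = 0.057, and 0.0068 without 24 h replicate 2).

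Among the 11 kinesins of cilia and signalling 1 fell at 24 h, against 6.34% of named genes, and the class medians were −0.01 at 12 h and 0.02 at 24 h. KIF24, which recruits CP110 to mother centrioles and keeps cilia from forming in cycling cells, was at 7.21, 7.10 and 7.54 in the controls, 6.76, 6.82 and 6.79 at 12 h and 6.46, 6.87 and 6.18 at 24 h. Every treated array lay below every control. It fell 1.71-fold at 24 h (difference −0.77, SE 0.17, adjusted p = 0.019, limma) and at 12 h differed by −0.49 (adjusted p = 0.12). Its call ended without 24 h replicate 1 (adjusted p = 0.072) or replicate 3 (adjusted p = 0.067), and its promoter window held a CHR match and 3 CCAAT boxes.

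KIF21A, a kinesin that restrains microtubule growth at the cell cortex, was at 7.26, 7.17 and 7.60 in the controls, 7.61, 7.80 and 7.80 at 12 h and 7.64, 7.60 and 7.58 at 24 h. Control replicate 3 alone reached up to the treated arrays. The difference at 12 h was 0.39 (adjusted p = 0.070), and 0.52 without control replicate 3 (adjusted p = 0.0024, limma). KIF27, linked to motile cilia, differed by 0.36 and 0.35 (adjusted p = 0.25 and 0.23). KIF6 was dim, with a mean of 3.49, and differed by 0.12 and 0.03. The other 7 members of the class had differences between −0.26 and 0.17 at both times.

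**Figure D5:**
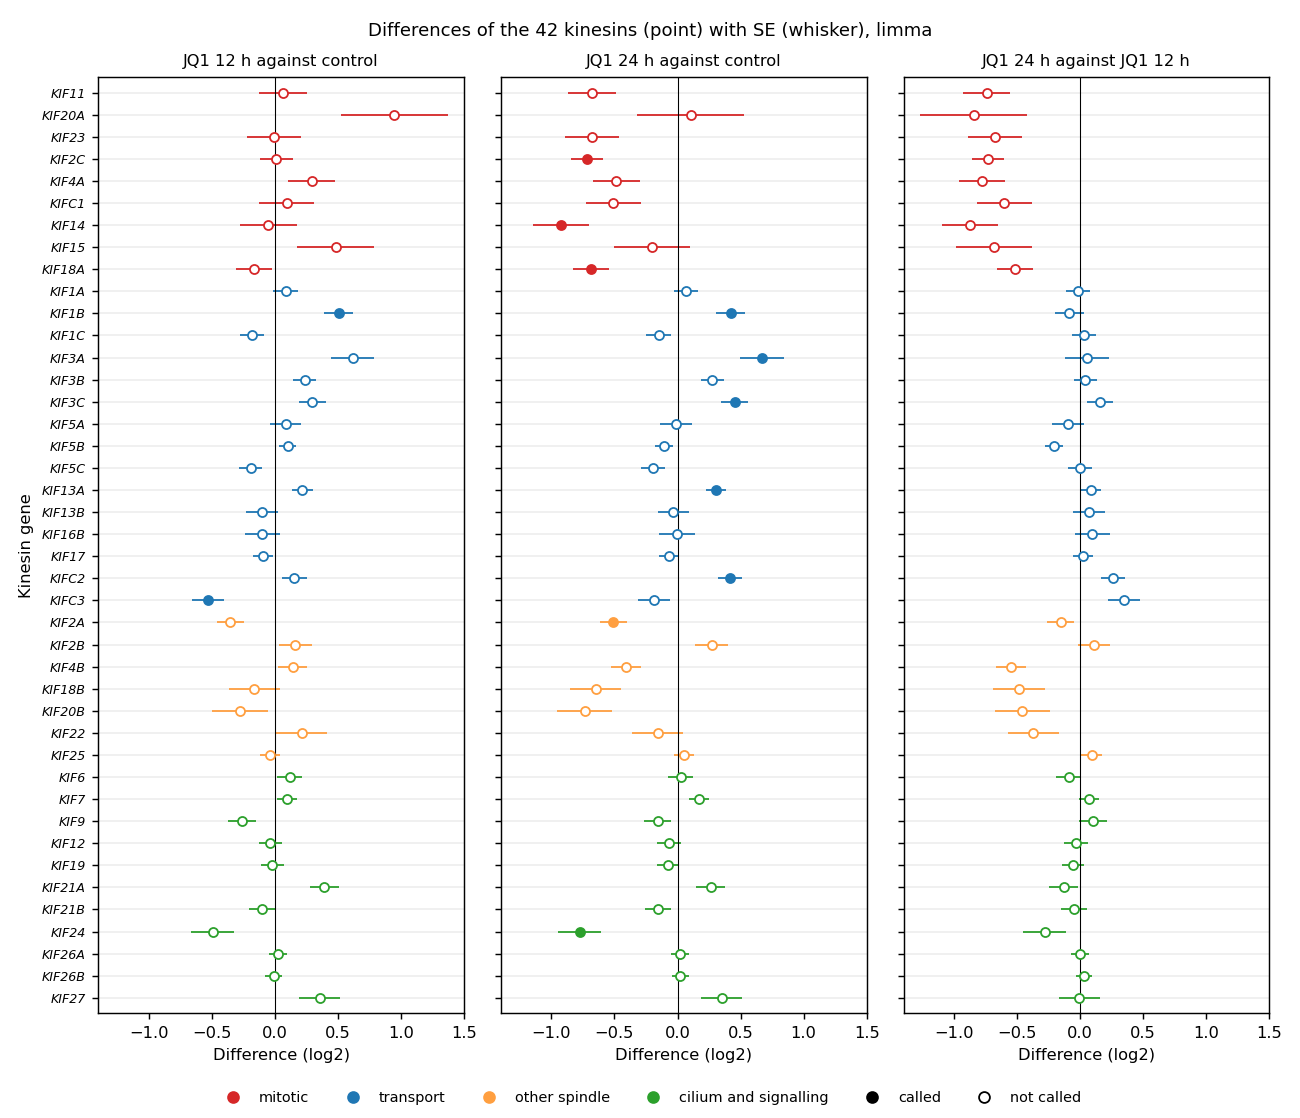
Log2 differences of all 42 kinesins (points) with their SE (whiskers) in the 3 comparisons, grouped and coloured by class; filled points were called at an adjusted p under 0.05 (limma). In the right panel all 9 mitotic kinesins lie between −0.87 and −0.52, and none is called.

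Of 16 listed binding partners of the spindle kinesins 12 were measured. At 24 h 5 of these were called lower and 0 higher (median −0.54, 12 of 12 below 0), against 6.34% and 5.17% of named genes. At 12 h 1 was called lower (median −0.06), against 4.39%. HMMR, a microtubule-associated partner of TPX2, fell 1.51-fold at 12 h (difference −0.59, adjusted p = 0.047, limma) and 2.53-fold at 24 h (−1.34, adjusted p = 0.0012). CDCA8, or borealin, a subunit of the chromosomal passenger complex that KIF20A carries, fell 2.17-fold at 24 h (−1.12, adjusted p = 0.0013). PRC1, the midzone bundler that recruits KIF4A, KIF14 and KIF20A, fell 2.08-fold at 24 h (−1.06, adjusted p = 0.0024). These 24 h calls of HMMR, CDCA8 and PRC1 held under all 18 alternatives, while the 12 h call of HMMR was lost in 7 of 9 fits without 1 array, all but those without control replicate 3 or 24 h replicate 2 (adjusted p 0.058 to 0.15).

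The partners showed the same arrays apart as the mitotic kinesins, with control replicate 3 highest in 11 of 12 and 24 h replicate 3 lowest in 11 of 12. Without control replicate 3, 5 were called lower at 24 h (median −0.39, 11 of 12 below 0), against 11.3% of named genes, and without 24 h replicate 2, 6 (median −0.68), against 4.47%. From 12 h to 24 h the 12 partners had a median of −0.65, in 12 of 12 every 24 h array lay below every 12 h array, against 7.11% of named genes, and 0 were called, against 0.00672%. RACGAP1, the partner of KIF23 in centralspindlin, was read by a dim row (mean 4.58) and differed by −0.48 at 24 h, short of the threshold (adjusted p = 0.0501); it passed without control replicate 2 (adjusted p = 0.016) or 24 h replicate 2 (adjusted p = 0.0498). TPX2 and citron kinase, also listed, were not analysed here.

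Of 11 listed regulators of G2 and M phase transcription 10 were measured, and 4 were called lower at 24 h and 0 higher (median −0.45), against 6.34% and 5.17% of named genes. At 12 h 0 were called (median −0.18), against 7.93%. MYBL2, which encodes B-MYB, was at 9.89, 9.87 and 10.66 in the controls, 10.01, 10.07 and 9.73 at 12 h and 8.93, 9.18 and 8.80 at 24 h. All 24 h arrays lay below all others. It fell 2.25-fold (difference −1.17, SE 0.21, adjusted p = 0.0086, limma), a call that held under all 18 alternatives. LIN9, a core subunit of the MuvB complex of DREAM and B-MYB, fell 1.76-fold (−0.82, adjusted p = 0.018), lost without 24 h replicate 1 or 3 (adjusted p = 0.076 each). RBL1, the pocket protein p107 that represses in DREAM, fell 1.79-fold (−0.84, adjusted p = 0.025), lost without control replicate 2, 24 h replicate 1 or 24 h replicate 3 (adjusted p 0.056 to 0.096). Repressing and activating members thus fell side by side. Control replicate 3 was the highest of all arrays in 8 of 10 regulators. Without it 4 were called lower at 24 h, against 11.3% of named genes, and the median was −0.27 at 24 h and −0.05 at 12 h. Without 24 h replicate 2, 4 were called lower (median −0.52), against 4.47%.

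Of 15 listed cargo adaptors and light chains of transport kinesins 10 were measured; 1 was called higher at 12 h, 1 higher at 24 h and 0 lower, with medians of 0.13 and 0.14, against 3.54% of named genes called higher at 12 h and 5.17% at 24 h. Control replicate 3 was the lowest of all arrays in 5 of 10, and without it the medians were 0.05 and 0.06, with 3 of 10 differences below 0 at 12 h and 4 of 10 at 24 h. KIFBP, an inhibitor that keeps several kinesins, KIF15 and KIF18A among them, off microtubules, rose 1.44-fold at 12 h (difference 0.53, adjusted p = 0.038, limma) and differed by 0.46 at 24 h (adjusted p = 0.052, and 0.014 without control replicate 3). MAPK8IP3, or JIP3, an adaptor of kinesin-1, rose 1.48-fold at 24 h (0.57, adjusted p = 0.042). Left out singly, control replicates 1 and 2, the 3 arrays of 12 h and 24 h replicate 3 ended the KIFBP call at 12 h (adjusted p 0.065 to 0.14), and any array but control replicate 3 and 12 h replicate 2 ended that of MAPK8IP3 (0.051 to 0.14). Without control replicate 3, 2 adaptors were called higher at 24 h, against 9.61% of named genes, and without 24 h replicate 2, 1, against 4.60%.

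The kinesin light chains KLC1 and KLC2, which tie KIF5 motors to cargo, differed by 0.30 and 0.24 at 12 h and by 0.31 and 0.24 at 24 h (adjusted p = 0.16 and 0.12, then 0.13 and 0.10). All their treated arrays lay above all controls, and KLC2 was called at 24 h without 24 h replicate 2 (adjusted p = 0.041, limma). KIFAP3, the accessory subunit of KIF3A and KIF3B, differed by 0.02 and 0.04, and by −0.29 and −0.27 without control replicate 3, which read 7.84 against 8.77 and 8.75 in the other controls. Of 16 listed subunits of dynein and dynactin, the minus-end motor and its activator, 6 were measured. DCTN6, a dynactin subunit, fell 1.49-fold at 12 h (difference −0.58, adjusted p = 0.017), a call that ended without control replicate 1 or 2 or 12 h replicate 2 (adjusted p 0.053 to 0.070), and it was the only 1 of the 6 called then, against 7.93% of named genes. At 24 h 0 of 6 were called, against 11.5% of named genes. Without control replicate 3, 2 of 6 were called lower at each time, against 10.5% of named genes at 12 h and 11.3% at 24 h. None of 12 listed tubulins had a named row, and they were not analysed here.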

How the data were processed

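RNA of 9 samples, 3 per group, was measured on 9 arrays. The authors deposited 1 table of log2 values, 53617 rows by 9 arrays; the log2 unit was taken from the values themselves, which ran from 2.01 to 13.88. Transcriptome Analysis Console was used, per the submitters' processing notes; its version, the background correction, the normalization and the detection calls are not given in the sources used here. If arrays were normalized against each other, a change in total RNA per cell would not be seen. Of the rows, 16098 had 1 gene symbol in the platform's table and 37519 none. For 779 genes with several rows, that of highest mean was used.

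The 9 arrays were fitted together with limma 3.58.1 in R 4.3.3, 1 mean for each group, with empirical Bayes moderation without trend (3.14 prior degrees of freedom) and no filter. Within each of the 3 comparisons, p-values were adjusted over 14884 genes (Benjamini-Hochberg), with calls made where the adjusted p was under 0.05. The code was tested on simulated data. Controls are shared by both comparisons with control. The number of arrays limits the precision.

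Members, classes and partner lists were chosen with earlier results of these data known, so list counts are descriptions, set beside the share of all genes. Genes named are the 9 mitotic kinesins, every other kinesin called in a comparison, of the others the brightest and the dimmest 3 and the 3 with the largest difference from control at either time, up to 3 called members of each partner list by smallest p, and partners known to bind kinesins. Alternatives were an intensity trend, a filter at a mean of 5, quantile normalization, array weights, only the groups compared, the mean of all rows of a gene, all rows tested, the replicate number as a block, each array left out in turn and, chosen after the data were seen, control replicate 3 and 24 h replicate 2 left out together.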

Additional observations from a re-analysis of the deposited data

Results flagged for a closer look

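KIF4B and KIF5B were flagged because every 12 h array lay above, and every 24 h array below, all 3 controls. The first part alone held for 11.3% of named genes and the second alone for 12.8%. The share of named genes with both was not counted, so the pattern cannot be called unusual. For KIF4B, whose probes may not be separable from KIF4A, the difference between 24 h and 12 h was −0.55 (adjusted p = 0.38, limma), and for KIF5B it was −0.21 (adjusted p = 0.58). The difference between the times was therefore tested and missed the threshold for both genes.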

How the results depend on the processing

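Counts of called kinesins moved with the setting. At 12 h, 2 kinesins were called, 13 with array weights, 1 with only the groups compared, 1 with the mean of all rows of a gene, 0 with every row of the table tested, 12 without control replicate 3 and 24 h replicate 2, and 0 to 8 with 1 array left out. At 24 h, 10 were called, 20 with array weights, 2 with only the groups compared, 4 with every row tested, 20 without both of those arrays, and 1 (without 24 h replicate 1) to 13 with 1 array left out. Between 24 h and 12 h, 0 were called, 1 with array weights, 12 without both arrays, and 0 to 1 with 1 array left out. Over the 14 alternatives for which it was computed, the mitotic median ran from −0.05 to 0.22 at 12 h, below 0 without control replicate 1 or 2, from −0.82 to −0.48 at 24 h and from −0.88 to −0.59 between the times; the cause of these shifts was not tested. Of 2148 values of single named genes under an alternative, 1917 kept their sign or moved by less than their SE and stayed on their side of the threshold, 115 lost the threshold, 102 gained it, 14 uncalled values moved further, and 0 called values changed sign. Pairing of samples by replicate number was not detected (correlations of same-numbered deviations −0.32 to 0.22, over 0.1 in 2 of 9 pairs). Deviations from a mean of only 3 arrays are tied to each other, so these correlations cannot exclude pairing. With the replicate block 1 kinesin was called at 12 h, 8 at 24 h and 0 between the times. No scanner files were used here, so signal over background is unknown for dim rows such as KIF6, KIF5A and KIF5C.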
